A study of Mus musculus with 4 samples.

Results

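White adipose tissue (WAT) and liver of wild-type mice were compared, with 1 expression array for each tissue. The animals of both arrays carried the intact gene (Pnpla7+/+), were of the C57BL/6N strain and were 4 weeks old. No treatment is named in the labels. Whether the same animals gave both tissues was not established. Each array held RNA pooled from 5 animals, of which 200 ng was labelled with Cy3. The other 2 arrays of the series, the liver and WAT of Pnpla7-/- mice of the same strain and age, were used only to look at the same genes a second time. The 1 probe of Pnpla7 gave levels of 9.04 and 7.98 in the wild-type and labelled-knockout liver and of 0.739 and 0.372 in the WAT, so in liver it does not show the loss the label names. The labels do not say whether this probe lies in the removed part, and those arrays are called labelled knockout throughout. The genes compared were those whose probes stood well above background on both wild-type arrays, with a ratio, and those seen on 1 of them alone, with a bound. They numbered 17559 of 22327 named genes on the array.

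White fat stores triglyceride in a large droplet inside each adipocyte, releases it as fatty acids when hormones call for it, and secretes hormones such as leptin and adiponectin. Liver is built mainly of hepatocytes, which make most plasma proteins, turn ammonia into urea, degrade amino acids, make bile acids and glucose, and assemble lipoproteins. Both tissues make fatty acids and triglyceride, so they share many enzymes and often use different gene copies for the same step.

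A pool on 1 array has no replicate, so no difference below has a test, a p-value or an error across animals, and precision is limited by the number of arrays. The arrays had 0 saturated spots, with 65.5% of spots well above background for liver and 72.6% for WAT, and all 4 lay on 1 slide with 1 scan time. A level below is the signal divided by that array's 75th percentile, which was 1470.4 intensity units in liver and 1689 in WAT. A ratio is the log2 of the WAT level over the liver level, so a negative ratio means more in liver. The scanner software's error model gave a median error of 0.21 for a ratio, probes spotted 10 times varied by a median SD of 0.054, and different probes of a gene had a pooled SD of 0.67 over 4409 genes. These errors cover spots and probes only. In whole tissue, fewer cells of a type and less RNA per cell cannot be told apart. The extraction protocol in the labels names livers for every sample, while the tissue labels name WAT. The labels give no sex and no depot for the WAT. Xist, the RNA of the inactive X chromosome, was at 0.883 in liver and 0.848 in WAT, and 6 of 6 Y-linked genes on the array were seen on neither array.

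The tissues differed strongly in a minority of genes. Of 15305 genes measured on both arrays, 10150 (66.3%) lay within 2-fold, and the median ratio of all genes was 0.04. At least 4-fold more was found in WAT for 1198 genes (7.83%) and in liver for 1235 genes (8.07%), which puts 49.2% of these genes on the side of WAT, or 59.3% when ratios are centred on ribosomal protein genes. With normexp background correction the share was 41.0%, or 40.5% with no offset. The numbers parted further out. Among genes measured on both arrays, at least 64-fold more was found in liver for 320 and in WAT for 58. Log2 ratios of 8 or beyond were found for 146 in liver and 15 in WAT. A further 1802 genes were seen in WAT alone, of which 423 (23.5%) had a bound of at least 4-fold, and 452 in liver alone, of which 216 (47.8%) did. With normexp and an offset of 50, genes with such a bound numbered 107 for WAT and 154 for liver. Such a bound sets the level on the bright array against the higher of the lowest signal called well above background on the dim array and the probe's own signal there. The dim array's level was under 0.05 for 25.5% of the genes higher in WAT and 24% of those higher in liver, and the size of those ratios is less certain.

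**Figure D1:**
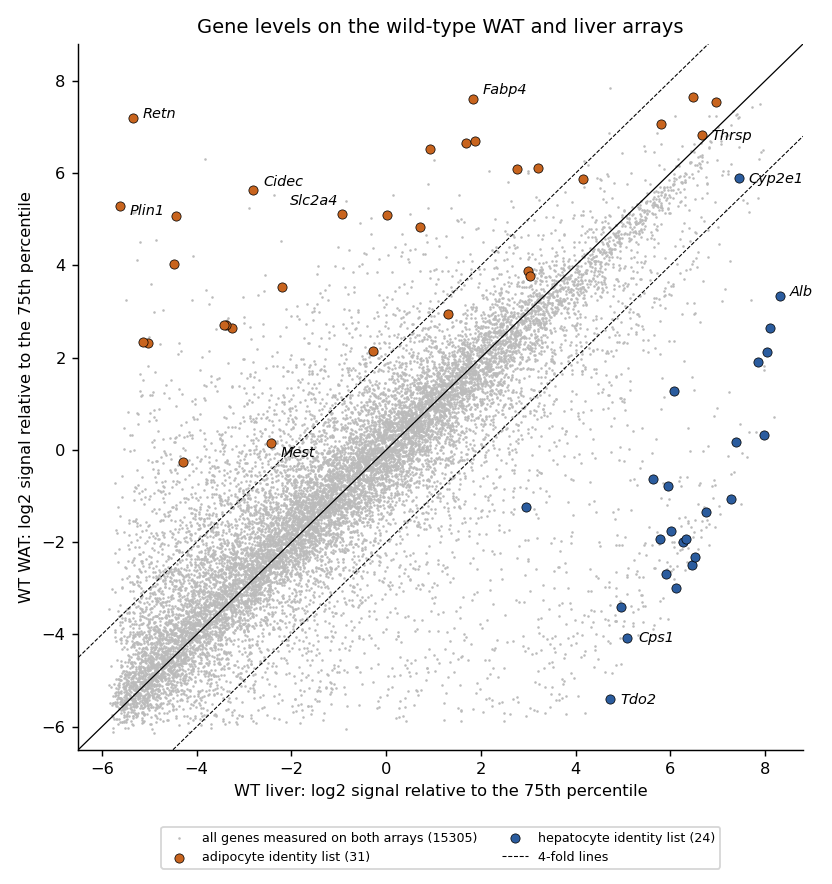
Each point is a gene measured on both wild-type arrays, with its log2 level in liver on the horizontal axis and in WAT on the vertical axis, relative to each array's 75th percentile. Orange points are the adipocyte identity list, of which 23 of 31 lie above the upper 4-fold line, and blue points are the hepatocyte identity list, of which 23 of 24 lie below the lower one.

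The gene with the highest ratio was Retn, which encodes resistin, a hormone of mouse fat. By the 1 of its 2 probes that was measured, its level was 0.0247 in liver and 146 in WAT, a ratio of 12.53. Plin1 encodes perilipin 1, the main coat protein of the adipocyte droplet, and was at 0.0203 in liver and 39 in WAT, a ratio of 10.91. Rbp7, a retinol-binding protein of fat, had a ratio of 10.48, the resistin-like Retnla one of 10.48, and Rgcc, a regulator of the cell cycle, one of 10.14. Cox8b (9.70), a subunit of cytochrome oxidase found in muscle and brown fat, Sncg (9.52), a synuclein of adipocytes, and the droplet gene Cidea (9.41) followed. Arxes2, Mfap5, Adig, Cidec, Prkar2b and Slc1a5 had ratios between 8.14 and 9.39. For each of these genes every measured probe was past 4-fold. Among genes seen in WAT alone the largest bounds were those of Cfd, the protease adipsin, at least 9697-fold, and Adipoq, which encodes adiponectin, at least 7259-fold. The probe of Plin1 lies on chromosome 7 between 86866112 and 86866171, that of Adipoq on chromosome 16 between 23157576 and 23157635, and that of Cfd on chromosome 10 between 79355302 and 79355361, all on mm9 per the scanner files. The amino acid transporters Slc36a2 and Slc7a10 had bounds of at least 1536-fold and 1007-fold.

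The lowest ratio belonged to Tdo2, which encodes tryptophan dioxygenase, the first enzyme of tryptophan breakdown in liver. Its level was 26.6 in liver and 0.0235 in WAT, a ratio of -10.15. Upp2, a uridine phosphorylase, had a ratio of -9.89, and Mat1a, the liver form of the enzyme that makes S-adenosylmethionine, one of -9.61. The probe of Mat1a lies on chromosome 14 between 41937140 and 41937199 on mm9. Dmgdh (-9.61), which oxidises dimethylglycine in choline breakdown, Hgd (-9.60), an enzyme of tyrosine breakdown, Igfbp1 (-9.53), a binding protein of insulin-like growth factors, and the urea cycle enzymes Cps1 (-9.15) and Otc (-9.15) were near them. Serpina6 (-9.44) encodes the carrier of glucocorticoids in plasma. Hsd3b3, Sult1d1, Sult2a4, Sult2a6, Cyp2c39 and Cyp2c54 had ratios between -9.51 and -9.34, but their families hold near-identical copies that can share probe signal, so the member is uncertain. Among genes seen in liver alone, Car5a, a mitochondrial carbonic anhydrase, had a bound of at least 905-fold, Gsta2 of 716-fold and Cyp1a2 of 688-fold.

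Promoters of 3 liver genes and 3 fat genes are shown as examples of the windows in which CpG and motifs were counted; single promoters vary widely, and 2 of the 3 fat ones hold fewer CpG than any of the 3 liver ones. They are the 250 bases upstream of the gene start, 5′ to 3′ on the gene's strand, from RefSeq on GRCm38.p6. Capitals mark matches to the motifs searched. The liver promoters are those of Alb (chr5:90460620-90460869, + strand), which encodes albumin, Fabp1 (chr6:71199629-71199878, + strand), the fatty acid binding protein of liver, and Igfbp1 (chr11:7197537-7197786, + strand). The fat promoters are those of Plin1 (chr7:79732777-79733026, - strand), Lep (chr6:29059971-29060220, + strand), which encodes leptin, and Adipoq (chr16:23146286-23146535, + strand).
Alb: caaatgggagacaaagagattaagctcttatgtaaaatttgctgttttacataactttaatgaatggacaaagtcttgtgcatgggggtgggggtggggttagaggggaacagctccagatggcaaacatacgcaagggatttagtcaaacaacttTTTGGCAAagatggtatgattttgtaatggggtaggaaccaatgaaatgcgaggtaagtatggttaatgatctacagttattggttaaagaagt
Fabp1: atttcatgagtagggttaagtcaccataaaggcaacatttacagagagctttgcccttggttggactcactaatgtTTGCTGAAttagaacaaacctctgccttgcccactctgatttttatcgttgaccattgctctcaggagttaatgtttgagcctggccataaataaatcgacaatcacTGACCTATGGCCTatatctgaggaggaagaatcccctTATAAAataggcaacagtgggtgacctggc
Igfbp1: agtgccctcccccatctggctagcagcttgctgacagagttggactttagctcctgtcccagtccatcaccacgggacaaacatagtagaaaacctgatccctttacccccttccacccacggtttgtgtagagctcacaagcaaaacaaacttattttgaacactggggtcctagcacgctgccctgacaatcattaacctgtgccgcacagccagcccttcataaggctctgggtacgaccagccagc
Plin1: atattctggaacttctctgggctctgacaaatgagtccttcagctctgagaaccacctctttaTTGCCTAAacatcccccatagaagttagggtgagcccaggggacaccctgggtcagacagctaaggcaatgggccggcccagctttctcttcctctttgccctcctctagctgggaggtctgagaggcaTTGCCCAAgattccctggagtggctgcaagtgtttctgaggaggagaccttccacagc
Lep: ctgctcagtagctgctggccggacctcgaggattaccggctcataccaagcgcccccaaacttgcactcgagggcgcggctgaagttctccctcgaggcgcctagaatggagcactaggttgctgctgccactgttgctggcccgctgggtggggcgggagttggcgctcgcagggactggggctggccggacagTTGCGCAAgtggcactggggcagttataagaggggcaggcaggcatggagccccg
Adipoq: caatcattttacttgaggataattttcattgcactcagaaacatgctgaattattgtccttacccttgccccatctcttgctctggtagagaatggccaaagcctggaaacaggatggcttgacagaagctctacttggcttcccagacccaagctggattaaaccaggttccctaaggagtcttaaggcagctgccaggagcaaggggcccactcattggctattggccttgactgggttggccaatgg
CpG dinucleotides, which are rare in most of the genome and dense in the promoters of broadly used genes, numbered 2 in the Alb window, 2 in Fabp1, 5 in Igfbp1, 1 in Plin1, 16 in Lep and 0 in Adipoq. The capitals in Fabp1 are, from the 5′ end, a C/EBP motif, a direct repeat as bound by PPAR receptors, and a TATA box. Alb and Lep hold 1 C/EBP motif each and Plin1 holds 2, while Igfbp1 and Adipoq hold 0 matches.

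Liver-biased genes as a group had CpG-poor promoters. The median number of CpG in the window was 3 for 252 genes at least 64-fold higher in liver, 6 for 954 at least 4-fold higher in liver, 13 for 870 at least 4-fold higher in WAT, and 15 for 8062 within 2-fold. Genes at least 64-fold higher in WAT had a median of 11, over 46 genes. At most 5 CpG were found in 74.6% of the first of these sets, in 32.6% of the genes at least 64-fold higher in WAT and in 20.2% of genes within 2-fold.

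**Figure D2:**
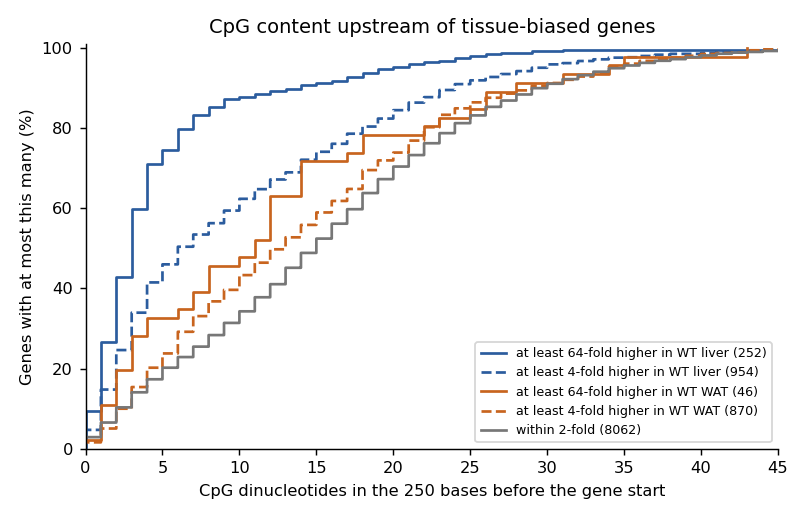
The horizontal axis counts CpG dinucleotides in the 250 bases before each gene start, and the vertical axis gives the percentage of genes with at most that number. Lines are sets of genes by their ratio, with the number of genes in brackets, and the line of genes at least 64-fold higher in liver lies above all others over most of the range, with a median of 3 against 15 for genes within 2-fold.

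Motifs were counted in the same windows, on both strands unless stated. The core CAAAGTCCA, bound by HNF4, a hepatocyte factor, was in 3.17% of windows of genes at least 64-fold higher in liver, 0% of the 46 of genes at least 64-fold higher in WAT, 0.115% of those at least 4-fold higher in WAT and 0.4% of all. Of the 8 genes in the first group, 6 belong to the Cyp2c and Cyp3a families, whose copies share sequence. The C/EBP motif TTGCNNAA, also on both strands, was in 18.3%, 13%, 7.47% and 8.17% of the same sets in that order. The direct repeat bound by PPAR receptors, searched on both strands, was in 3.17%, 2.17%, 0.345% and 0.292%, and 3 of the 8 liver genes with it are Cyp2d copies that share sequence. A TATA box, TATAAA starting 45 to 20 bases before the start on the gene's strand, was in 5.16%, 4.35%, 2.76% and 1.96%. Genes at least 4-fold higher in liver, with 954 windows, held the HNF4 core in 1.47% and the C/EBP motif in 12.7%. They held the direct repeat in 1.36% and the TATA box in 3.77%. The shares of genes at least 64-fold higher in WAT rest on 0, 6, 1 and 2 genes in the order given. A match is a run of letters and not a site shown to be bound.

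Most adipocyte genes were higher in WAT. Of 38 adipocyte identity genes, 31 were measured on both arrays with a median ratio of 4.98, 23 were at least 4-fold higher in WAT, 0 in liver, and 7 were seen in WAT alone. Among the hormones, Lep was at 0.00587 in liver, where it was not well above background, and at 2.97 in WAT, at least 171-fold higher. Genes of fatty acid uptake followed. Fabp4, the fatty acid carrier of adipocytes, was at 3.58 in liver and 195 in WAT (ratio 5.77), Lpl, the lipase that releases fatty acids from lipoproteins, at 3.66 and 103 (4.81), and the fatty acid receptor Cd36 at 1.01 and 34.2 (5.09). Caveolae, the membrane pits of adipocytes, are built from caveolins and cavins. Cav1 was seen in WAT alone (at least 225-fold), and Cav2, Cavin1 and Cavin2 had ratios of 6.09, 5.60 and 3.32. Some genes of storage differed by less than 4-fold. Dgat2, which makes triglyceride, was at 125 in liver and 185 in WAT (ratio 0.57), Gpd1, which makes glycerol phosphate, at 56.1 and 134 (1.26), and Thrsp, a gene of lipid synthesis, at 102 and 113 (0.15). Of the regulators, Pparg, the nuclear receptor that drives adipocyte formation, had a ratio of 4.12, while Cebpa, which acts in both tissues, had 0.71.

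Hepatocyte identity genes were lower in WAT, most of them by at least 4-fold. Of 25 hepatocyte identity genes, 24 were measured, 23 were at least 4-fold higher in liver, and the median ratio was -7.74. The measured gene short of 4-fold was Cyp2e1, an ethanol-oxidising enzyme, at 175 in liver and 59.4 in WAT (ratio -1.56, with both probes between -1.71 and -1.40). Cyp7a1, the rate-limiting enzyme of bile acid synthesis, was seen in liver alone, at least 366-fold higher. Plasma protein genes of hepatocytes were also seen in WAT. Alb was at 321 in liver and 10.1 in WAT (ratio -4.99), Ahsg at 276 and 6.27 (-5.46), and Apoa2 at 262 and 4.35 (-5.91). The enzymes Arg1 (-9.12) and Hpd (-8.84) had lower ratios than these, but the 2 groups overlapped. The 10 plasma protein genes of the list had ratios between -8.59 and -4.21, with a median of -6.58. The 9 measured enzymes had ratios between -10.15 and -1.56, with a median of -8.84. The summed level of all 25 genes was 93.1 in WAT against 2813 in liver. Cyp2e1 alone held 59.4 of the sum in WAT and 175 of that in liver. Whether hepatocyte RNA in the WAT pool plays a part in the WAT levels was not tested.

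Some secreted proteins were higher in liver, some in WAT and some near level. Of 25 genes of albumin and other carriers, 21 were measured, 15 were at least 4-fold higher in liver, 3 were seen in liver alone and 0 were higher in WAT, with a median of -7.21. Hpx, which binds heme, was at 154 in liver and 0.476 in WAT (ratio -8.34), and Ambp at 291 and 1.64 (-7.47). A smaller group stayed within 4-fold. Trf, the iron carrier transferrin, was at 234 in liver and 78.6 in WAT (-1.58), Hp, haptoglobin, at 175 and 94.8 (-0.88), Rbp4, the retinol carrier, at 149 and 65.9 (-1.18), and the acute phase protein Orm1 at 21.8 and 11.1 (-0.97). Of 11 measured adipokines 4 were at least 4-fold higher in WAT, Retn, Ccdc80 (4.10), Fbn1 (4.12) and Ccl2 (2.10), and 6 were seen in WAT alone, 5 of them with a bound of at least 4-fold. Rarres2, which encodes chemerin, was higher in liver (-1.79), and Angptl4, an inhibitor of lipoprotein lipase, was level (0.18). Of 20 hepatokines, 19 were measured and 13 were at least 4-fold higher in liver, among them Hamp (-8.71), the iron hormone hepcidin, Lect2 (-8.76) and Gdf15 (-5.76). Selenop, a selenium carrier, had a ratio of -0.99 and Igf1 one of -1.27.

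Most clotting and complement genes were higher in liver, and a few in WAT. Of 28 measured coagulation genes, 20 were at least 4-fold higher in liver and 4 in WAT, with a median of -7.38. Fgb, a fibrinogen chain, was at 252 in liver and 1.24 in WAT (ratio -7.66), and F12 at 58.2 and 0.158 (-8.53). Among the genes higher in WAT were Thbd (3.38) and Procr (2.95), of the vessel wall, and Anxa2 (3.88). F13a1, the A subunit of factor XIII, was seen in WAT alone, at least 346-fold higher, while its partner F13b had a ratio of -8.77. F10 is counted among the 20 by the mean of 2 probes that disagreed, at -8.03 and 2.68. In complement, 18 of 30 measured genes were at least 4-fold higher in liver and 0 in WAT. Cfd, the protease that starts the alternative pathway, was at 0.0162 in liver and 168 in WAT, and its substrate Cfb was at 91.4 and 7.78 (-3.55). C3, the central component, was at 248 in liver and 90.3 in WAT (-1.46). C1qb and C1qc, made by macrophages, had ratios of -0.47 and -0.34, whereas C8b, of the terminal pore, had -8.63.

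Lipoprotein genes divided by step. Of 15 apolipoproteins measured, 12 were at least 4-fold higher in liver and 2 in WAT. Apob, the scaffold of large lipoproteins, was at 59.7 in liver and 0.155 in WAT (ratio -8.59), Apoa1, of high density lipoprotein, at 76.9 and 0.251 (-8.26), and Mttp, which loads lipid onto Apob, at 8.25 and 0.12 (-6.11). Apoe lay within 4-fold, at 240.4 and 87.4 (-1.46). The pair higher in WAT was Apod (3.37) and Apol6 (4.51). On the uptake side Lpl and its anchor on the vessel wall, Gpihbp1 (2.23), were higher in WAT, and the hepatic lipase Lipc was seen in liver alone, at least 127-fold higher. Of 13 measured genes of assembly, remodelling and receptors 5 were at least 4-fold higher in liver, 1 in WAT and 6 within 2-fold, among the last Scarb1 (-0.06), Abca1 (0.087) and Abcg1 (0.21).

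Genes of lipolysis were more often higher in WAT, and those of the droplet coat were divided. Of 17 measured lipolysis genes 6 were at least 4-fold higher in WAT and 1 in liver, the esterase gene Aadac (-8.96), and of 15 droplet coat genes 6 were higher in WAT and 4 in liver. Lipolysis runs from the triglyceride lipase Pnpla2 through Lipe to Mgll. Pnpla2 was at 9.16 in liver and 69.4 in WAT (ratio 2.92), Lipe at 0.105 and 6.25 (5.89) and Mgll at 2.47 and 7.74 (1.65). Abhd5, which activates Pnpla2, had a ratio of 2.42, and G0s2, which inhibits it, 0.88. In the hormonal control of lipolysis, the adrenergic receptor Adrb3 (5.72), the kinase subunit Prkar2b (8.28) and the natriuretic peptide clearance receptor Npr3 (6.13) were at least 4-fold higher in WAT. Adrb1 had a ratio of 0.68 and was dim in both tissues. The droplet coat split by member. Plin1, Plin4 (4.98), Cidea and Cidec (8.43) were higher in WAT, Plin5 (-3.02) and Cideb (-7.39) in liver, and Plin2 (0.099) and Plin3 (0.19) were level. Pnpla3, a lipase-like droplet protein, was at 0.575 in liver and 10.5 in WAT (4.19), and the hepatocyte droplet gene Hsd17b13 had probes at -8.74 and -2.09.

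Fatty acid synthesis leaned to WAT in its core and divided in its later steps. Of 23 measured genes 4 were at least 4-fold higher in WAT and 4 in liver, and the median of 0.15 was near that of all genes. Fasn, fatty acid synthase, was at 6.38 in liver and 38.4 in WAT (ratio 2.59), and Me1, which supplies NADPH, at 18 and 76.9 (2.10). Acetyl-CoA carboxylase, Acaca, had a ratio of 2.39. The regulators Srebf1, Mlxipl and Nr1h3 had ratios of -0.11, -0.38 and -0.36. Scd1, a desaturase, was at 125 and 152 (0.28), whereas its relative Scd2 was at 0.797 and 32.4 (5.35). Polyunsaturated fatty acids are made by Fads1, Fads2, Elovl2 and Elovl5, and these 4 were the members at least 4-fold higher in liver, with ratios of -3.32, -5.25, -7.84 and -2.78. In triglyceride synthesis, 7 of 20 measured genes were at least 4-fold higher in WAT and 3 in liver. Mogat2 (5.07), Gpat3 (3.38) and Dgat1 (3.27) were on the side of WAT, and the phosphatase Lpin2 (-4.20) and glycerol kinase Gk (-3.42) on that of liver.

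Genes of mitochondrial oxidation were mostly near level, and most of those of peroxisomal oxidation were lower in WAT. Of 38 nuclear genes of oxidative phosphorylation, 38 lay within 2-fold, with ratios between -0.87 and 0.71 and a median of -0.32. Of 21 genes of mitochondrial fatty acid oxidation, 16 lay within 2-fold and the median was -0.38. With quantile normalization the medians were 0.25 and 0.22, so they have no settled direction. The gate of the pathway was an exception, since Cpt1a was at 6.41 in liver and 0.539 in WAT (ratio -3.57) and Cpt1b at 0.088 and 0.484 (2.46). Of 20 measured peroxisomal genes, 12 were at least 4-fold higher in liver, with a median of -3.01. Hao1 (-8.92) and Uox (-7.94), the urate oxidase, were the lowest with Acot12 (-8.76), while Abcd2, a fatty acid transporter, had 1.59. For ketone bodies, the synthetic enzyme Bdh1 (-7.66) was lower in WAT, and Oxct1, needed to burn ketones and lacking in hepatocytes, was at 0.618 in liver and 14.5 in WAT (4.55).

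**Figure D3:**
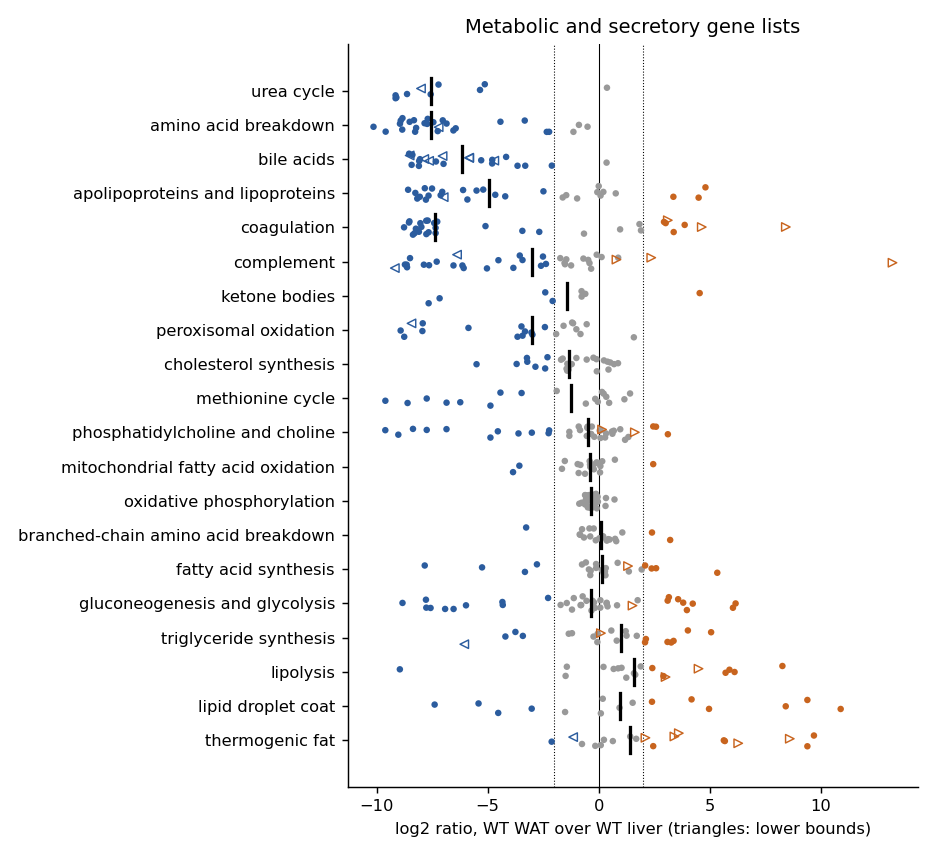
Each point is a gene of the list named at the left, with its log2 ratio of WAT over liver on the horizontal axis. Orange marks at least 4-fold higher in WAT, blue at least 4-fold higher in liver, open triangles are lower bounds and the black bars are medians of measured genes, at -7.57 for the urea cycle and -0.32 for oxidative phosphorylation.

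Most nitrogen and bile acid genes of these lists were higher in liver. Of 9 measured urea cycle genes 8 were at least 4-fold higher in liver, with a median of -7.57. Glul, glutamine synthetase, was the exception, at 29.6 in liver and 38.4 in WAT (ratio 0.38). Of 26 measured genes of amino acid breakdown 23 were at least 4-fold higher in liver, with a median of -7.58, and the remaining ones were Gstz1 (-0.50), Gpt (-0.89) and Sdsl (-1.14). The breakdown of branched-chain amino acids followed another pattern. Of its 20 genes 16 lay within 2-fold, Bcat2, the mitochondrial transaminase that starts it, was at 0.529 in liver and 4.94 in WAT (3.22), its inhibitory kinase Bckdk had a ratio of 2.40 and the opposing phosphatase Ppm1k -3.27. Of 23 bile acid genes, 15 of 16 measured were at least 4-fold higher in liver and 7 were seen in liver alone. Slc27a5, which activates bile acids, had a ratio of -8.43, Abcb11, the bile salt pump, -8.09, and the coreceptor Klb, which also serves adipocytes, 0.36. Slc10a1, the bile salt importer, had probes at -9.44 and -0.15. In cholesterol synthesis 0 of 26 measured genes with its control were at least 4-fold higher in WAT and 7 in liver.

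Genes of choline oxidation were those of liver, and other genes of choline and methyl groups were mixed. PNPLA7 breaks down lysophosphatidylcholine, and Pnpla7 was at 9.04 in liver and 0.739 in WAT, a ratio of -3.61 with a model error of 0.20. Its relatives Pnpla6 and Pnpla8 had ratios of 0.33 and 0.60. Of 9 genes of choline transport and oxidation, 7 were at least 4-fold higher in liver, among them Bhmt2 (-9.03) and Dmgdh. Pemt, which methylates phosphatidylethanolamine, was at 30.8 in liver and 1.05 in WAT (-4.88), and Chpt1, the last enzyme of the CDP-choline route, at 1.46 and 12.7 (3.12). Etnk2, an ethanolamine kinase, had -6.86 and the choline kinases Chka and Chkb -0.90 and -0.34. In the methionine cycle, 8 of 18 genes were at least 4-fold higher in liver and 0 in WAT. Gnmt, which consumes surplus S-adenosylmethionine, was at 123 in liver and 0.316 in WAT (-8.61), and Ahcy had -6.24. Mat2a, the form of other tissues, had 1.16, and Cdo1, which oxidises cysteine, was level (-0.15).

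Gene copies that perform the same step were paired as a liver form and a fat form. They were picked as such with earlier results known, so the counts only describe the pairs. In 15 of 29 pairs of a liver form and a fat form the liver form was at least 4-fold higher in liver and the fat form at least 4-fold higher in WAT. In 4 further pairs only the liver form and in 7 only the fat form passed 4-fold, and in 3 neither did. The glucose transporters are an example. Slc2a2 was at 25.8 in liver and 0.0563 in WAT (-8.84), and Slc2a4, moved to the membrane by insulin, at 0.522 and 34.7 (6.05). Further down, Pklr (-6.54) stood against Pkm (4.24), with Gapdh (-0.55) and Tpi1 (-0.28) shared. The enzymes of glucose release Fbp1 (-7.57) and G6pc (-7.77) were those of liver, while Pck1, which fat uses to make glycerol, was at 109.7 in liver and 47.7 in WAT (-1.20). Among fatty acid carriers, Fabp1 was at 253 in liver and 3.3 in WAT (-6.26), against 5.77 for Fabp4. Nuclear receptors (Ppara -3.38, Pparg 4.12), glycogen synthases (Gys2 -4.23, Gys1 4.50) and receptors of fibroblast growth factors (Fgfr4 -5.29, Fgfr1 3.11) divided in the same manner. The pairs in which neither form passed were enolase (Eno3 0.36, Eno1 -0.17), the adiponectin receptors (Adipor2 0.041, Adipor1 0.16) and phosphoenolpyruvate carboxykinase, where Pck2 has no ratio and Pck1 that given above.

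**Figure D4:**
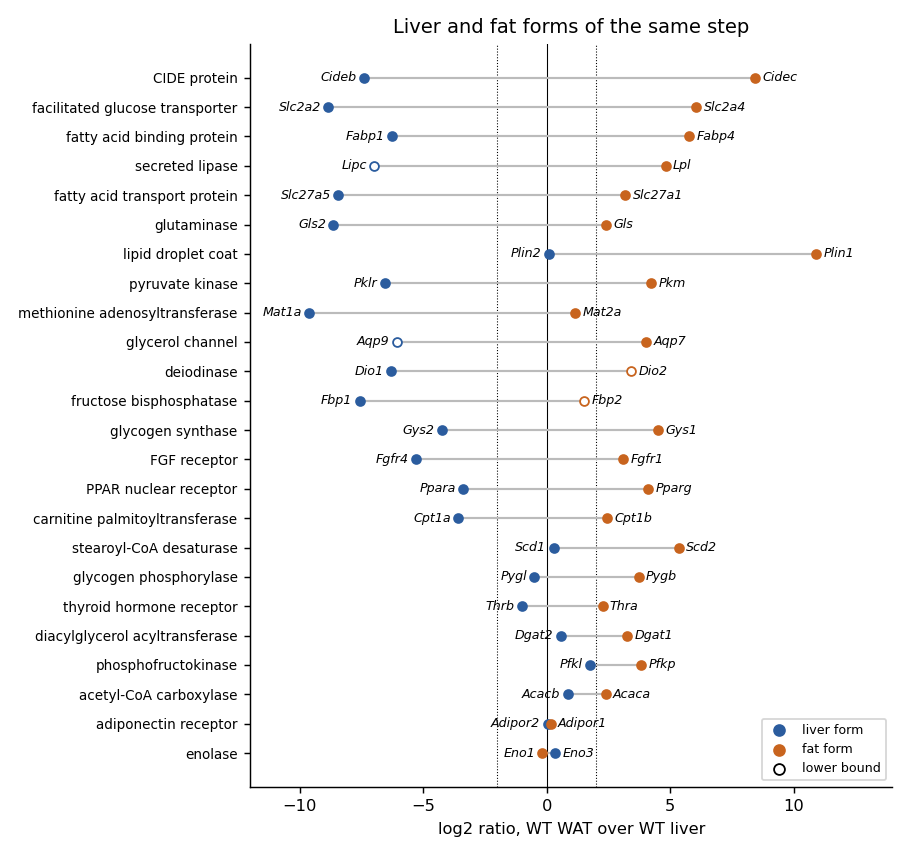
For each step at the left, the log2 ratio of WAT over liver is plotted for the liver form in blue and the fat form in orange, joined by a line, for 24 of the 27 pairs with a value or bound for both forms; the other 3 are not shown here. Dotted lines mark 4-fold, open circles are lower bounds, and in 23 of these 24 pairs the liver form lies to the left of the fat form, enolase being the exception.

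Hormone receptors were more often on the side of WAT. Of 40 receptors, 32 were measured, 10 were at least 4-fold higher in WAT and 5 in liver, and 8 were seen in WAT alone. The antilipolytic receptors Hcar2 (5.24) and Ptger3 (5.72) and the oxytocin receptor Oxtr (5.66) were higher in WAT. The receptors seen in WAT alone included Tshr, for thyrotropin, at least 91-fold, Ffar2, for short fatty acids, at least 228-fold, Gipr at least 35.3-fold and the cannabinoid receptor Cnr1 at least 54.2-fold. On the side of liver stood Gcgr, the glucagon receptor, at 48.9 in liver and 0.953 in WAT (-5.68), Avpr1a (-3.88), Agtr1a (-2.52), Fgfr4 (-5.29) and Lepr (-2.33). Receptors used by both were level, as for Insr (-0.29), Ghr (0.55) and Nr3c1 (0.24). Binding proteins of insulin-like growth factors divided into Igfbp1 and Igfbp2 (-7.06) in liver and Igfbp5 (4.41) and Igfbp6 (4.64) in WAT.

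Most hepatocyte transcription factors were higher in liver. Of 21 hepatocyte regulators, 12 of 15 measured were at least 4-fold higher in liver and 6 were seen in liver alone, with a median of -5.22. The highest ratio was 0.81, and 0 were at least 2-fold higher in WAT. Hnf4a was at 70.5 in liver and 0.174 in WAT (-8.66), Foxa2 had a ratio of -8.18, and Nr1i2, which senses drugs, was at least 235-fold higher in liver. The adipocyte regulators as a list lay near all measured genes. Of 16 measured, 10 lay within 2-fold, against 66.3% of all measured genes. Their median was 0.21, against 0.04 for all, and it turns negative with other background correction. The members past 4-fold in WAT were Pparg, Stat5a (2.18) and Zfp423 (3.92), with Ebf1 (at least 157-fold) and Ebf2 (at least 78.3-fold) seen in WAT alone. Most genes that mark position along the body axis were seen in WAT. Of 30 such genes, 18 were seen in WAT alone, 17 of them with a bound of at least 4-fold, 5 of 7 measured ones were at least 4-fold higher in WAT, and 0 were higher in liver or seen there alone. Hoxc6 was at 0.0163 in liver and 6.04 in WAT, at least 348-fold higher, Hoxa7 at least 159-fold and Hoxc9 at least 126-fold. Imprinted growth genes leaned the same way. Of 17 measured, 7 reached 4-fold in WAT and 0 in liver, led by Nnat (7.48), Meg3 (4.46) and Dlk1 (4.28).

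The supporting cells of the tissues differed in kind. Of 25 measured genes of adipose stromal progenitors 18 were at least 4-fold higher in WAT and 1 in liver, with a median of 3.92. Pi16, a marker of early progenitors, was at 0.0382 in liver and 8.23 in WAT (7.75), and Pdgfra had a ratio of 2.43. Dpp4, another such marker that hepatocytes also make, was higher in liver (-3.41). Of 44 measured matrix genes 34 were at least 4-fold higher in WAT and 2 in liver. Col6a1 was at 1.42 in liver and 34.8 in WAT (4.61), Col1a1 at 2.88 and 31 (3.43), and the members of liver were Vtn (-6.08), a plasma protein, and Col18a1 (-3.13). Fn1, the fibronectin gene, had -1.88. Blood vessel markers showed different kinds of endothelium. Of 14 general markers 8 were at least 4-fold higher in WAT, such as Cldn5 (3.26) and Sox17 (2.89), while of 10 markers of liver sinusoids 6 were at least 4-fold higher in liver, such as Clec4g (-7.80) and Stab2 (-6.27), and Lyve1 was level (0.083).

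General macrophage markers were near level, while those of Kupffer cells, the macrophages of liver, were not. Of 13 general markers 11 lay within 2-fold, among them Cd68 (-0.043) and Csf1r (-0.59). Of 9 Kupffer cell markers 6 were at least 4-fold higher in liver, with Clec4f at 9.42 in liver and 0.0296 in WAT (-8.32) and Cd5l at 23.1 and 0.0886 (-8.03). Lymphocyte markers were low and level, with 8 of 9 B cell and 9 of 10 T cell genes within 2-fold. Markers of stellate cells, which store retinol in liver, were mixed. Of 9 measured, 3 were at least 4-fold higher in liver, among them Hand2 (-3.97), and 2 in WAT, Des (2.89) and Rgs5 (2.33), while Lrat was seen in liver alone, at least 44-fold higher. The chemokine Ccl8 had a ratio of 5.77 and Cxcl1 one of -3.14.

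**Figure D5:**
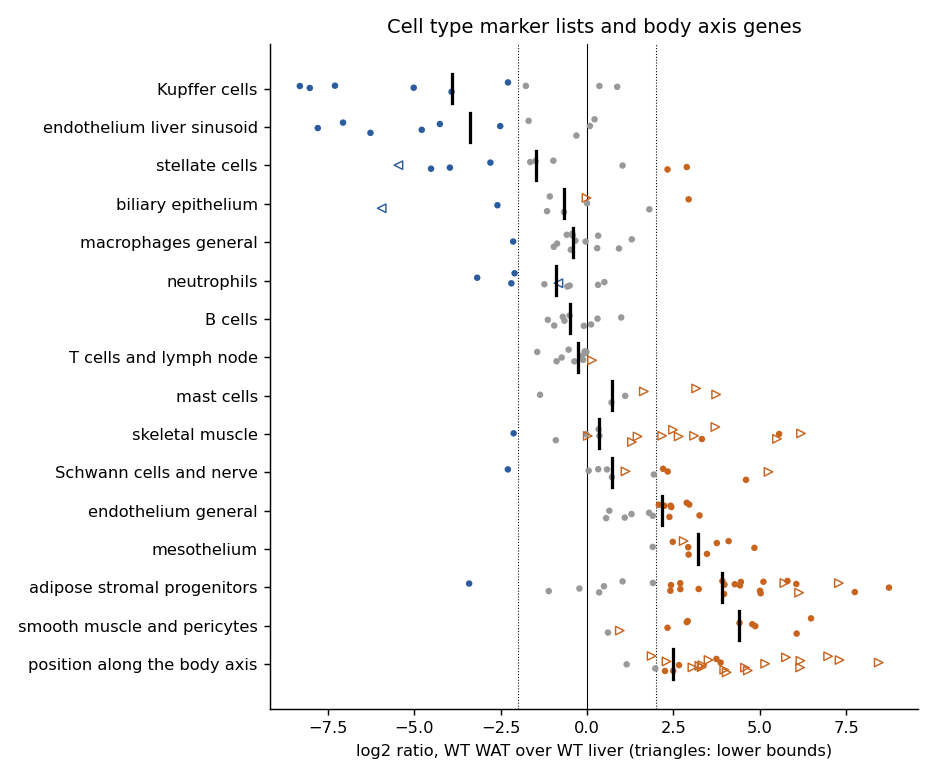
Each point is a marker gene of the cell type named at the left, or a body axis gene in the last line, with its log2 ratio of WAT over liver on the horizontal axis. Orange and blue mark at least 4-fold higher in WAT and in liver, triangles are lower bounds and black bars are medians of measured genes, at -3.92 for Kupffer cells and 4.41 for smooth muscle.

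Markers of other tissues were present in the WAT pool. Of 9 mesothelium genes 7 of 8 measured were at least 4-fold higher in WAT and 1 was seen there alone. Wt1 was at 0.084 in liver and 2.42 in WAT (4.85), and the summed level of the list was 1.17 in liver and 9.88 in WAT. Mesothelium covers the fat depots of the body cavity, and whether it sets the level of other genes here was not tested. Of 10 smooth muscle and pericyte genes 8 of 9 measured were at least 4-fold higher in WAT, with Cnn1 at 6.07 and Acta2 at 4.78. Of 18 skeletal muscle genes, 10 were seen in WAT alone, 2 of 7 measured were at least 4-fold higher in WAT and 1 in liver, and the summed level of all 18 was 6.57 in WAT against 2.15 in liver. Acta1 was at least 73.2-fold and Myh4 at least 45.2-fold higher in WAT. Myl1, a myosin light chain of muscle, was at least 564-fold higher in WAT and is not on the list. Of the mammary and other epithelium list, 7 of 17 genes were seen on neither array, including Epcam, Krt15 and the milk protein gene Wap.

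Genes of heat-making fat were part of the contrast, in the pool that also held the muscle markers just given. Of 13 measured thermogenic genes 5 were at least 4-fold higher in WAT and 1 in liver, and 5 were seen in WAT alone. Ucp1, which uncouples respiration, was at 0.00496 in liver and 6.79 in WAT, at least 392-fold higher, and Cidea was at 0.0344 and 23.4 (9.41). Kcnk3 (5.69) and Fabp3 (5.64) were also higher in WAT, and muscle uses Fabp3 and Cox8b as well. Elovl3, an elongase of active brown fat, was at 0.0465 in liver and 0.0277 in WAT (-0.75), and the coactivator Ppargc1a had -2.12. The median of the list was 1.42, and 0.66 with normexp background correction. The part of muscle RNA in these values was not tested.

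Several gene families, most of them of detoxifying enzymes, were mostly higher in liver. Of 73 measured cytochrome P450 genes 50 were at least 4-fold higher in liver and 2 in WAT, with a median of -6.17. The members of WAT were Cyp1b1 (4.02) and Cyp2s1 (2.73). Of the UDP-glucuronosyltransferases 11 of 12, of the sulfotransferases 7 of 10, of the carboxylesterases 10 of 13 and of the major urinary proteins, which carry pheromones, 11 of 11 were at least 4-fold higher in liver. Some copies in these families are near identical, and probe signal may be shared between such members. Of 22 measured glutathione transferases 10 were at least 4-fold higher in liver and 2 in WAT. Among glucose transporters Slc2a13 (3.69) and Slc2a3 (3.17) joined Slc2a4 in WAT, and Slc2a9, a urate carrier, was lower there (-4.30). Of 12 measured claudins 4 were at least 4-fold higher in liver, among them Cldn3 (-8.82) and Cldn1 (-4.34), and 3 in WAT, Cldn15 (5.88), Cldn5 (3.26) and Cldn10 (3.20).

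What the tissues shared was also measured. Of 538 genes above the 95th percentile of probe levels on both arrays, 436 lay within 2-fold. Genes picked as high on both arrays leave little room for large ratios, so this count describes them only. Of all measured genes, 66.3% lay within 2-fold. Dbi, which binds acyl-CoA, was at 128 in liver and 128 in WAT (-0.0088), and Adipor2 at 87.1 and 89.6. Of 34 ribosomal protein genes 34 lay within 2-fold, with a median of -0.30, and of 20 housekeeping genes 19 did, Pgk1 being the exception (-1.44). Genes of cell division had 24 of 28 within 2-fold, with Mki67 at 0.76 and Rrm2 at -1.78. Clock genes had 13 of 17 within 2-fold, with Per2 at -0.19 and Dbp at -0.46, and Hlf was past 4-fold in liver (-2.27).

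The labelled-knockout pair gave a second set of values for the contrast, on separate arrays. Of the 1198 genes at least 4-fold higher in WAT, 1180 were measured there, 861 were at least 4-fold higher in WAT again and 5 had the opposite sign. Of the 1235 genes higher in liver, 1121 were measured, 906 passed 4-fold again and 13 had the opposite sign, while 111 more were seen in liver alone. Retn had a ratio of 12.78 there, Cidec 6.33, Slc2a4 6.98, Mat1a -10.05 and Apob -9.83. The adipocyte identity list had a median of 3.96 and the hepatocyte list -8.12. Other medians lay further apart. The thermogenic list had 3.69 there against 1.42 in wild type, the skeletal muscle list 5.28 against 0.34, the peroxisomal list -1.15 against -3.01 and the cell division list -1.05 against 0.22. The skeletal muscle list had a summed level of 73.2 in the labelled-knockout WAT against 6.57 in wild type. Genotype and pool cannot be told apart in any difference between the 2 pairs.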

How the data were processed

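RNA of pooled tissue was hybridised to 1-colour Agilent arrays. The authors deposited scanner output of Agilent Feature Extraction 11.0.1.1, per the file headers, with a processed intensity for each spot, already background-subtracted by that software, and a series table of signal values, which equals the processed intensity divided by each array's 75th percentile. Outlier spots were left out here, log2 intensities had each array's 75th percentile subtracted, spots of a probe were averaged, and a gene's ratio was the mean over probes well above background on both arrays. Of 39429 probes, 31375 were named through RefSeq names of GRCm38.p6, and probe coordinates are those of mm9 in the files. A change of 4-fold was the limit, with no test, since each group had 1 array. Named genes were those of highest and lowest ratio or bound, the strongest and the opposing members of each list, pairs and families; members outside that rule were named after their values were seen. Members and lists were chosen with earlier results of these data known. Some genes that the rule covers are not reported here. Background correction, scaling, probe choice, filters and the limit were varied. Python 3.11.15, pandas 2.3.3, R 4.3.3 and limma 3.58.1 were used, and the calculation was tested on simulated data.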

Additional observations from a re-analysis of the deposited data

Results flagged for a closer look

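7 genes had opposite signs in the wild-type and the labelled-knockout pair, with at least 4-fold in one and at least 2-fold in the other. The difference was not tested, since each group had 1 array. Wfdc2 had a log2 ratio of -6.10 in wild type and 1.81 in the labelled-knockout pair, Acpp -2.42 and 2.12, Lingo4 -2.27 and 1.01, and Neb, a muscle gene, -2.13 and 1.34. In the other direction Esm1 had 1.77 and -3.19, Tceal5 1.44 and -2.44, and Ubd 1.52 and -2.55.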

How the results depend on the processing

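No paired analysis was possible because each group has 1 array. With normexp background correction and an offset of 50, 746 genes were at least 4-fold higher in WAT and 1074 in liver, against 1198 and 1235. Genes seen in 1 tissue alone with such a bound numbered 107 for WAT and 154 for liver, against 423 and 216. With no offset they numbered 144 and 269, so which tissue had more of them depended on background correction. A 2-fold limit gave 2775 genes higher in WAT, 2380 higher in liver, 775 seen in WAT alone and 348 in liver alone, and an 8-fold limit gave 573, 763 and 252 for the first 3 of these. Of 34 counts under alternatives, 24 were within 1.5 times the reported ones. Of 549 list medians under alternatives, 17 moved by more than the pooled probe SD and 532 did not. Of the values of named genes under alternatives 149 moved by more than that SD, 71 of them with normexp and an offset of 50. With the brightest probe 3 of 2433 genes past 4-fold changed sign, and of the named ones F10 turned to 2.68. The median of all genes was 0.04 as reported, -0.21 with normexp and an offset of 50, and 0.34 with ribosomal centring, so ratios near it have no settled direction. Genes near background on 1 array have the least certain ratios.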

Other observations

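Some probes that could not be named also differed between the tissues, in smaller shares than named genes. Of 8054 such probes 3818 were measured on both arrays, and 105 (2.75%) were at least 4-fold higher in WAT and 124 (3.25%) in liver. The shares of measured named genes were 7.83% and 8.07%. At least 64-fold ratios were found for 8 of these probes in WAT and 16 in liver.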
